A study of Mus musculus with 12 samples.

Results

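Amino acid transporters of the mouse blastocyst were followed over 12 arrays. The members are the probe sets paired with exactly one gene whose symbol belongs to the Slc1a, Slc3a, Slc6a, Slc7a, Slc36a, Slc38a or Slc43a series, which gave 125 of the 45037 probe sets, from 63 of the 18193 genes on the array. Of these, 79 probe sets of 43 genes averaged 100 or more in signal across the arrays and were tested, among 27808 probe sets in all. The other 46 had mean signals of 4.02 to 98.3 and were not tested, and 20 genes had no tested probe set, among them Slc3a1, Slc7a11 and Slc36a4. Choice by symbol also takes in 3 neighbouring or opposite-strand genes that carry a transporter's name, and of these Slc7a6os had 2 tested probe sets. The Slc6a series includes carriers of neurotransmitters, creatine and taurine beside those of amino acids.

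By its title, the study concerns how Ca2+ oscillations after fertilisation bear on later gene expression. Total RNA of blastocysts was measured on one-colour arrays in 3 groups of 4: embryos cultured in Ca-free medium, embryos treated by 20 Ca2+ pulses, and controls labelled as normal blastocysts. The sources used here do not state strain, embryo age, how many embryos were pooled per array, what a pulse was or how long embryos stayed without Ca2+. Nor do the labels say whether replicates were separate collections, so p-values measure the spread between these samples only.

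Amino acid carriers belong to solute carrier families that differ in what drives transport. SLC1, SLC6 and SLC38 carriers are mostly coupled to sodium, SLC36 carriers to protons, while the SLC7 light chains exchange one amino acid for another after pairing with an SLC3 heavy chain, and the cationic SLC7 carriers work alone. Early mouse embryos take up glycine and other organic osmolytes to control cell volume, and leucine and arginine uptake is known to bear on the activation of the trophectoderm for implantation.

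Every array had been scaled by the authors to one trimmed mean, yet the deposited median signal was 38.3 to 39.2 in Ca-free medium, 47.4 to 53.7 after 20 pulses and 49.4 to 53.05 in control. The median log2 change of all tested probe sets in Ca-free medium against control was -0.18 as scaled, -0.021 after quantile normalization, 0.19 after median scaling and -0.36 after scaling to the hybridization controls. Mean log2 hybridization control signals were 10.814 to 10.849 in Ca-free medium, 10.352 to 10.601 after 20 pulses and 10.597 to 10.674 in control. Of the RNA measures, the 18S rRNA 5' signal and the Gapdh 3'/5' ratio in Ca-free medium differed from both other groups. The 18S rRNA 5' signal was 4003 to 5779.9 in Ca-free medium, 2653 to 3689 after 20 pulses and 878 to 2559 in control. The Gapdh 3'/5' ratio was 2.89 to 5.05 in Ca-free medium, 5.70 to 7.58 after 20 pulses and 5.76 to 8.90 in control. The Ca-free arrays overlapped neither other group in these 2 measures. The Actb 3'/5' ratio was 1.69 to 1.884 in Ca-free medium, 1.492 to 1.685 after 20 pulses and 1.586 to 2.688 in control. There the Ca-free arrays lay within the control range but above every array after 20 pulses. Controls 1 and 2 differed from controls 3 and 4 in the 18S rRNA 5' signal, with 2409 and 2559 against 878 and 883. In the Actb 3'/5' ratio they had 1.586 and 1.666 against 2.688 and 2.638. Ca-free arrays 1 and 4 had Gapdh 3'/5' ratios of 5.05 and 4.73, against 3.1 and 2.89 on Ca-free arrays 2 and 3. Their 18S rRNA 5' signals were 4003 and 4640, against 5780 and 5237 on arrays 2 and 3. The part of these RNA measures in the results was not tested. All 11 blastocyst lineage markers were above the minimum, with summed signals of 55430 to 57760 in Ca-free medium, 55600 to 56700 after 20 pulses and 55770 to 57960 in control. In Ca-free medium against control 2 of the 11 fell, Eomes (log2 change -0.70, adjusted p = 5.45e-04) and Gata4 (-0.69, 0.00238), and 2 rose, Cdx2 (0.28, 0.0199) and Pou5f1 (0.20, 0.0329). After quantile normalization Eomes and Krt18 were lower and 0 higher, after median scaling Eomes was lower and 7 were higher, and after hybridization control scaling 4 were lower, Eomes and Gata4 among them, and Pou5f1 turned to -0.0043. After 20 pulses Sox17 rose (log2 change 1.00, adjusted p = 0.0269). Of 9 oviduct and uterine epithelium markers 8 were tested and 6 fell in Ca-free medium. After quantile normalization 4 were lower, after median scaling 2 and after hybridization control scaling all 8. Of all tested probe sets, 9.96%, 5.52% and 49.1% were lower under these scalings. The 9 markers had sums of 1952 to 2257 in Ca-free medium, 2643 to 3548 after 20 pulses and 3042 to 3665 in control. Of 8 cumulus and granulosa cell markers, 7 were on the array and 2 above the minimum, and both fell in Ca-free medium, Foxl2 with a log2 change of -0.97 and Inha with -0.61, the second not called after median scaling. The list had sums of 618 to 678 in Ca-free medium, 764 to 1048 after 20 pulses and 1020.0 to 1111 in control. Of all genes, each by its brightest probe set, 28.8% fell and 12.3% rose. The part of these markers in the results was not tested. A lower signal from fewer cells of a type cannot be told apart from less RNA per cell.

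In Ca-free medium against control, 32 of the 79 transporter probe sets fell and 5 rose (adjusted p under 0.05, limma), beside 29.7% of all tested probe sets that fell and 10.6% that rose (40.3% together). As shares of the members these are 40.5% lower and 6.33% higher. Without the 2 probe sets of Slc7a6os, which is no carrier, 32 of 77 fell and 4 rose (41.6% and 5.19%). The falls covered 20 genes and were most frequent among cationic SLC7 carriers, SLC6 carriers of amino acids and SLC6 carriers of neurotransmitters, creatine and osmolytes, whereas 0 of 8 SLC1 and 0 of 8 SLC7 light chain probe sets were called, although 3 and 2 of them had an unadjusted p under 0.05 (50.3% of all tested probe sets did) and median scaling called 3 of each higher (36.8% of all). The members' median log2 change was -0.30, beside -0.18 over all tested probe sets. All 4 Ca-free arrays lay below all 4 controls for 29 members and above them for 7, where the shares over all tested probe sets were 27% and 9.23%. These counts depended on the scaling: 12 members were lower and 6 higher after quantile normalization, beside 9.96% and 9.82% of all, and 6 were lower and 19 higher after median scaling, beside 5.52% and 36.8% of all.

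**Figure D1:**
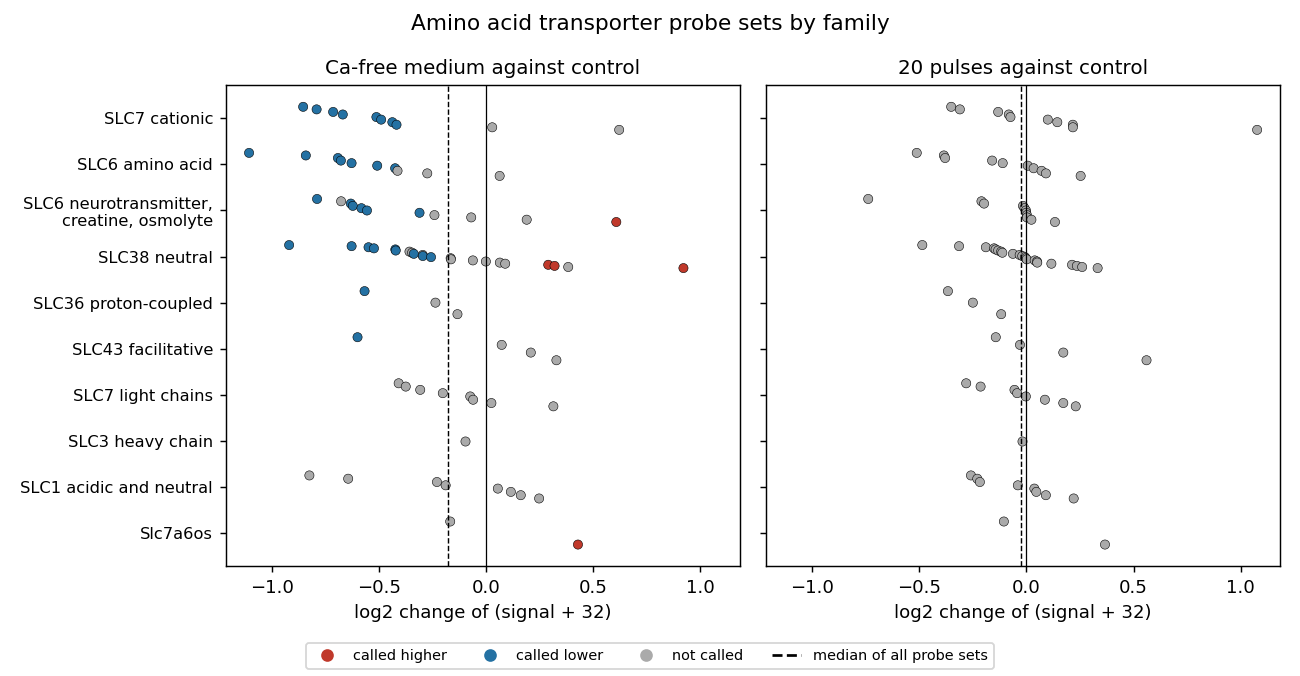
Log2 change of each tested transporter probe set by family, Ca-free medium against control and 20 pulses against control, 1 point per probe set, with the calls marked. In Ca-free medium 32 points are called lower and 5 higher, while after 20 pulses 0 are called.

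Among SLC6 carriers of amino acids, 7 of 10 probe sets fell and 0 rose, with a median log2 change of -0.57. After quantile normalization 3 were lower and 1 higher, beside 9.96% and 9.82% of all tested probe sets. After median scaling 2 were lower and 1 higher, beside 5.52% and 36.8% of all. Slc6a9, the glycine transporter GLYT1, by which early embryos accumulate glycine as an osmolyte, read 405, 413, 438 and 351 in Ca-free medium, 693, 661, 554 and 563 after 20 pulses and 714, 691, 688 and 579 in control (probe set 1417636_at, log2 change -0.69 ± 0.10 SE, adjusted p = 4.79e-04). Every Ca-free array lay below every other array. Its second probe set, 1431812_a_at, read 368, 302, 236 and 305 in Ca-free medium, 419, 377, 412 and 354 after 20 pulses and 446, 443, 441 and 426 in control, again with the Ca-free arrays lowest but for 1 array within the range after 20 pulses (log2 change -0.51 ± 0.11 SE, adjusted p = 0.00378). Slc6a19, a carrier of neutral amino acids best known from intestine and kidney, read 235, 258, 249.9 and 217 in Ca-free medium, 432, 511, 630.4 and 335 after 20 pulses and 488, 638, 459 and 294 in control (log2 change -0.84 ± 0.20 SE, adjusted p = 0.00471). Its Ca-free arrays were tight and low, and its controls spread widely. Slc6a14, a concentrative carrier of neutral and cationic amino acids, read 870.3, 861, 1160.1 and 747 in Ca-free medium, 1225, 1186, 1296 and 1181 after 20 pulses and 1398, 1299.7, 1045 and 1149 in control on 1420504_at (log2 change -0.42 ± 0.12 SE, adjusted p = 0.0121). One Ca-free array of Slc6a14 lay within the control range, and its other probe set gave -0.27 ± 0.17 SE (adjusted p = 0.203).

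All 4 tested genes of the cationic SLC7 group had a lower probe set, 8 of 10 in all, with a median log2 change of -0.50. After quantile normalization 2 of these 10 were lower, beside 9.96% of all tested probe sets, and after median scaling 2, beside 5.52%. Slc7a4, a relative of the cationic carriers, read 343, 381, 359 and 315 in Ca-free medium, 577, 614, 560.1 and 426 after 20 pulses and 596, 571, 553 and 572 in control on 1426068_at (log2 change -0.67 ± 0.11 SE, adjusted p = 6.62e-04). The Ca-free arrays lay below all others, and the second probe set of Slc7a4 gave -0.49 ± 0.13 SE (adjusted p = 0.00992). Slc7a2, the arginine and lysine carrier CAT2, read 62.6, 59.2, 86.8 and 71.0 in Ca-free medium, 146, 139.6, 162 and 99.4 after 20 pulses and 117, 154, 165 and 174 in control on 1436555_at (log2 change -0.85 ± 0.18 SE, adjusted p = 0.00242). Every Ca-free array lay below every array of the other groups. Of its other probe sets, 1426008_a_at gave -0.44 ± 0.13 SE (adjusted p = 0.0140), 1422648_at -0.42 ± 0.16 SE (adjusted p = 0.0478) and 1450703_at 0.62 ± 0.43 SE (adjusted p = 0.257). The call of 1422648_at ended without any single one of controls 1, 2 and 3, or of Ca-free replicates 1, 2 and 4, where the log2 change was -0.35, -0.33, -0.44, -0.42, -0.43 and -0.36.

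Slc7a3, the cationic carrier CAT3, read 139.6, 127, 136 and 139 in Ca-free medium, 252, 191, 224 and 232 after 20 pulses and 255, 193, 181 and 203 in control (log2 change -0.51 ± 0.13 SE, adjusted p = 0.00668). Its Ca-free arrays lay within a narrow band below all others. Slc7a1, the cationic carrier CAT1, differed between its probe sets. The brightest, 1454992_at, read 833, 435, 426 and 771 in Ca-free medium, 760.1, 552, 726 and 683 after 20 pulses and 723, 599, 482 and 530.0 in control and was not called (log2 change 0.029 ± 0.20 SE, adjusted p = 0.917). Ca-free arrays 1 and 4 were its highest and arrays 2 and 3 its lowest, and with arrays 1 and 4 only it was called higher (log2 change 0.45). The other probe sets of Slc7a1 fell, 1454991_at by 0.79 (adjusted p = 0.0127) and 1421533_at by 0.71 (adjusted p = 0.0118) on the log2 scale.

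Of 11 probe sets of the SLC6 carriers of neurotransmitters, creatine and osmolytes, 6 fell and 1 rose. After quantile normalization 4 were lower and 2 higher, beside 9.96% and 9.82% of all tested probe sets. Under median scaling 1 was lower and 3 higher, beside 5.52% and 36.8% of all. Slc6a2, the noradrenaline transporter, read 423, 419, 527 and 453 in Ca-free medium, 748, 771, 680.0 and 669 after 20 pulses and 786, 713, 742 and 627 in control on 1447311_at (log2 change -0.62 ± 0.10 SE, adjusted p = 5.94e-04). Its other probe sets fell as well, 1421641_at with a log2 change of -0.63 ± 0.12 SE (adjusted p = 0.00159) and 1442449_at with -0.58 ± 0.19 SE (adjusted p = 0.0223). On the first of these the Ca-free arrays read 225, 289, 227 and 203, against 384, 407, 384 and 348 in control. Slc6a3, the dopamine transporter, read 114, 95.6, 71.3 and 90.5 in Ca-free medium, 233, 163, 177 and 162 after 20 pulses and 224, 144, 195 and 173 in control (log2 change -0.79 ± 0.17 SE, adjusted p = 0.00260). For both genes every Ca-free array lay below every control, except on 1442449_at, where the groups overlapped.

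Slc6a6, the taurine transporter, rose. Its brightest probe set, 1437149_at, read 1064, 1459, 1382 and 1046 in Ca-free medium, 695, 747, 778 and 933 after 20 pulses and 904, 556, 893 and 875 in control (log2 change 0.61 ± 0.15 SE, adjusted p = 0.00719). Ca-free arrays 2 and 3 were the highest, and control 2 stood below its group. The other probe sets of Slc6a6 were not called, with log2 changes of 0.19 ± 0.10 SE for 1421346_a_at and -0.68 ± 0.41 SE for 1449751_at. Slc6a8, the creatine transporter, read 3460.3, 3764, 3767 and 3340.4 in Ca-free medium, 5301, 3408, 4589.9 and 4736 after 20 pulses and 4302, 4234, 4483 and 4777 in control on 1417116_at (log2 change -0.31 ± 0.10 SE, adjusted p = 0.0269). Leaving out control 3 or 4, or Ca-free replicate 1 or 4, ended its call, at log2 changes of -0.31, -0.28, -0.29 and -0.28. The other Slc6a8 probe set gave -0.24 ± 0.10 SE (adjusted p = 0.0705).

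**Figure D2:**
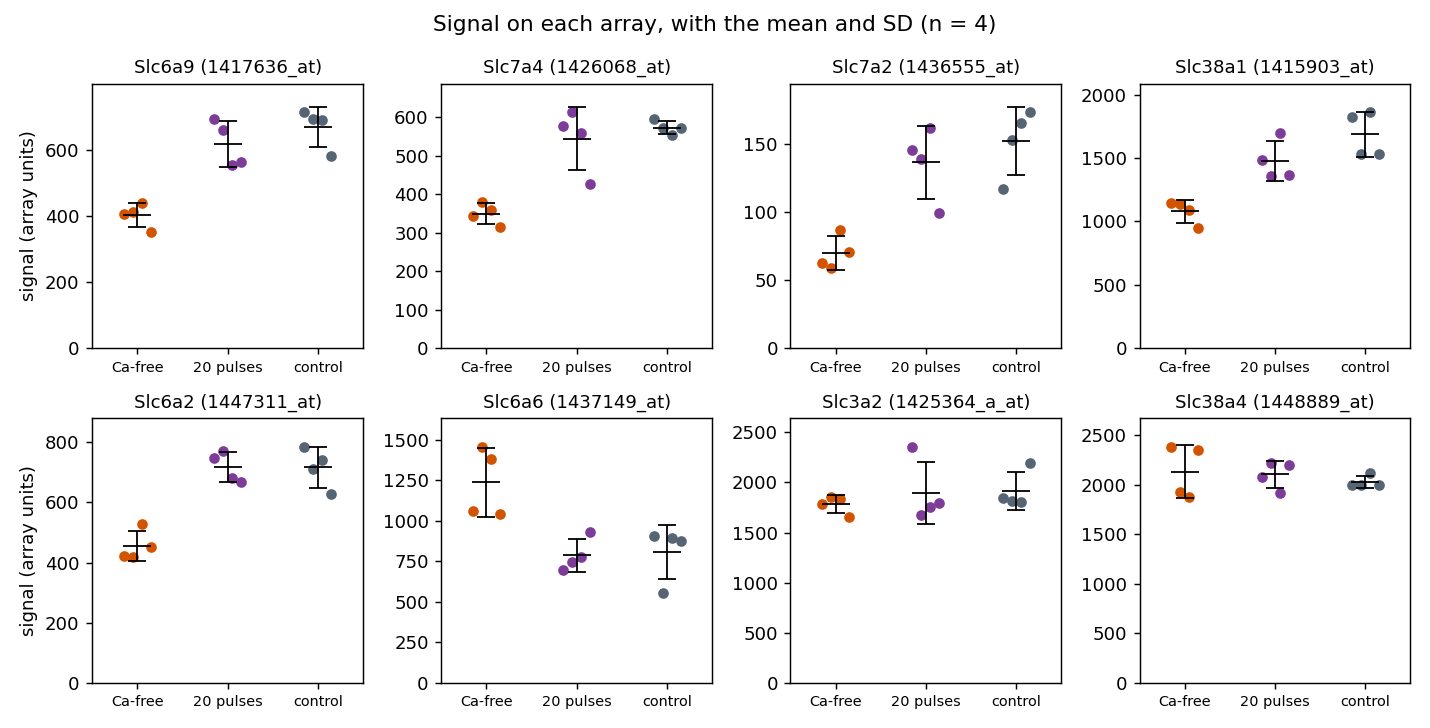
Signal on each array (rescaled intensity, linear axis from 0) of transporter probe sets named in the text, in Ca-free medium, after 20 pulses and in control, 4 arrays each. Slc6a9 reads 351 to 438 in Ca-free medium and 579 to 714 in control, and Slc6a6 reads 1046 to 1459 in Ca-free medium and 556 to 904 in control.

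SLC38 carriers moved both ways, with 9 of 22 probe sets lower and 3 higher. After quantile normalization 3 were lower and 2 higher, beside 9.96% and 9.82% of all tested probe sets. After median scaling 1 was lower and 6 higher, beside 5.52% and 36.8% of all. The promoters of 2 SLC38 carriers, Slc38a10 and Slc38a7, are shown. Of the 13 genes named for a call against control, 8 had a promoter entry, in 13 windows. Among these 8, only Slc38a10 and Slc38a7 held a searched motif. The windows run from 250 bases before to 50 after the RefSeq start (GRCm38.p6), here chr11:120151302-120151601 and chr8:95853442-95853741, both on the minus strand and written 5′ to 3′. Capitals mark TGATTCA, which fits TGANTCA, the letters searched for AP-1 with any base allowed in the middle, here T. The match begins 166 bases before the start in Slc38a10 and 45 before it in Slc38a7. Whether AP-1 binds there was not tested.
Slc38a10 promoter: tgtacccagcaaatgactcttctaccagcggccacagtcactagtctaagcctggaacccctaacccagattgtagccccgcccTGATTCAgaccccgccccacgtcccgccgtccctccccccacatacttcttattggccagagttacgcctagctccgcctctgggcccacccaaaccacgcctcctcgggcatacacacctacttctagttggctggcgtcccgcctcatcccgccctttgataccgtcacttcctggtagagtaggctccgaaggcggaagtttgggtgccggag
Slc38a7 promoter: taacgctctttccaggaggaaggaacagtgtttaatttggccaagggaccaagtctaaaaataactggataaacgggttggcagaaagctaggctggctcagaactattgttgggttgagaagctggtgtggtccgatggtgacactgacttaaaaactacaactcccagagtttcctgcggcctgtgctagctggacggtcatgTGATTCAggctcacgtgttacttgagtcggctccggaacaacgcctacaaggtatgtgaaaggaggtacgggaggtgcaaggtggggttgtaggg
Searched on both strands, TGANTCA occurred in 7.81% of all 32851 promoter windows and in 7 of the 46 windows of tested members (15.2%). TGATGNAA, the letters of a C/EBP-ATF response element, occurred in 3.97% and 8.70%, and TGACGTCA, the cyclic AMP response element, in 1.79% and 2.17%. Beside the genes shown, TGANTCA was found for Slc6a14, Slc6a17, Slc6a5 and Slc7a1. TGATGNAA was found for Slc1a4, Slc6a21 and Slc7a7, and TGACGTCA for Slc38a6. Of these further genes, Slc6a14, Slc6a17, Slc6a5, Slc7a1 and Slc6a21 also had a probe set called lower in Ca-free medium against control, and the others had none called. These matches describe letters in the windows only.

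Slc38a1, the glutamine carrier SNAT1, gave opposite calls. Probe set 1415903_at read 1146, 1136, 1094 and 947 in Ca-free medium, 1488, 1359, 1698 and 1365 after 20 pulses and 1822, 1535, 1865 and 1534 in control (log2 change -0.63 ± 0.10 SE, adjusted p = 5.27e-04). The Ca-free arrays lay below all others. The other, 1454764_s_at, read 173, 204, 289.6 and 228 in Ca-free medium, 80.5, 144, 129 and 159 after 20 pulses and 58.9, 172, 63.1 and 147 in control and rose (log2 change 0.92 ± 0.26 SE, adjusted p = 0.0134), with every Ca-free array above every control. By the array maker's naming, the endings s_at and x_at mark probe sets whose probes can match transcripts of other genes as well. Whether the rise on 1454764_s_at came from Slc38a1 was not tested. Slc38a10, a little-studied member, had 7 tested probe sets, of which 4 fell, 1 rose and 2 were not called. Its brightest, 1456241_a_at, read 3056, 2546, 2735 and 3051 in Ca-free medium, 2531, 2470.2, 2837 and 2715 after 20 pulses and 1954, 2342, 2415 and 2395 in control (log2 change 0.32 ± 0.083 SE, adjusted p = 0.00846). By contrast 1434616_at read 95.4, 111, 56.1 and 131 in Ca-free medium, 152, 169, 133 and 110.3 after 20 pulses and 254, 247, 187 and 159 in control (log2 change -0.92 ± 0.20 SE, adjusted p = 0.00345). The other lower ones were 1429979_a_at, 1429980_x_at and 1434617_x_at, with log2 changes of -0.42, -0.52 and -0.26. Log2 changes of the probe sets that were not called were -0.061 ± 0.14 SE for 1427294_a_at and 0.38 ± 0.26 SE for 1427295_at.

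Slc38a7, which exports glutamine from lysosomes, read 879, 873, 954 and 867 in Ca-free medium, 1091, 1142, 1098 and 1113 after 20 pulses and 1014, 1067, 1247 and 1233 in control (log2 change -0.34 ± 0.080 SE, adjusted p = 0.00523). All Ca-free arrays were below all others. Slc38a9, the lysosomal arginine sensor upstream of mTORC1, was called lower on 1 of 5 probe sets, the brightest, 1447784_x_at (log2 change -0.29 ± 0.10 SE, adjusted p = 0.0244). That probe set read 396, 333, 395 and 351 in Ca-free medium, 427, 428, 432 and 365 after 20 pulses and 435, 439, 501 and 463 in control. Its call ended without control 3 or Ca-free replicate 2 or 4, at log2 changes of -0.26, -0.25 and -0.27. The remaining 4 gave log2 changes of -0.16 (1436456_at), -0.00079 (1449791_x_at), 0.089 (1454283_at) and -0.34 (1455612_at).

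Slc38a4, an imprinted carrier strongly expressed in placenta, rose on 1428111_at, which read 944, 819, 821 and 925 in Ca-free medium, 774, 826, 837 and 1007 after 20 pulses and 824, 690.0, 675 and 662 in control (log2 change 0.29 ± 0.10 SE, adjusted p = 0.0312). Control 1 lay among the Ca-free arrays, and the call ended without any one of controls 2, 3 and 4, or Ca-free replicate 1 or 4, at log2 changes of 0.28, 0.27, 0.26, 0.25 and 0.26. The brightest probe set, 1448889_at, gave 0.064 ± 0.084 SE (adjusted p = 0.560). Slc38a2, the carrier SNAT2 known to be induced by amino acid starvation, read 247, 365, 406 and 249 in Ca-free medium, 359, 399, 393 and 377 after 20 pulses and 494, 389, 341 and 342 in control on 1426722_at and was not called (log2 change -0.30 ± 0.15 SE, adjusted p = 0.134). Without Ca-free array 3 it was called, at -0.41. Its other probe set, 1429594_at, gave -0.36 ± 0.14 SE (adjusted p = 0.0578), with all Ca-free arrays below all controls.

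Heavy and light chains of the exchangers were not called as scaled by trimmed mean. Median scaling called 3 of 8 light chain probe sets and Slc3a2 higher, beside 36.8% of all tested probe sets. Hybridization control scaling called 4 of the 8 and Slc3a2 lower, beside 49.1% of all. Slc3a2, the heavy chain 4F2hc, read 1785, 1852, 1837 and 1658 in Ca-free medium, 2356, 1671, 1759 and 1799 after 20 pulses and 1843, 1809.6, 1808 and 2197 in control (log2 change -0.10 ± 0.10 SE, adjusted p = 0.452). The groups overlapped. Slc7a5, the light chain LAT1, an exchanger of leucine and other large neutral amino acids, read 627, 549.9, 542 and 561 in Ca-free medium, 317, 427, 297 and 539.5 after 20 pulses and 513, 370.4, 410.5 and 531 in control, with every Ca-free array above every control (log2 change 0.31 ± 0.16 SE, adjusted p = 0.126). Slc7a6, the light chain y+LAT2, gave 0.025 ± 0.10 SE on 1433467_at and -0.074 ± 0.065 SE on 1460541_at. Slc7a7, the light chain y+LAT1, gave -0.20 ± 0.10 and -0.31 ± 0.19 SE on its 2 probe sets, and Slc7a9, partner of the heavy chain Slc3a1, gave -0.060 ± 0.19 SE. Slc7a8, the light chain LAT2, read 139, 180.3, 147 and 199 in Ca-free medium, 268, 238, 289 and 279 after 20 pulses and 206, 268, 265 and 168 in control (log2 change -0.37 ± 0.15 SE, adjusted p = 0.0570). It was called lower without control 4, at -0.49, and without Ca-free array 4, at -0.45.

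The 8 SLC1 probe sets were likewise not called. Of these, 3 were higher after median scaling, beside 36.8% of all tested probe sets. After hybridization control scaling 2 were lower, beside 49.1% of all. Slc1a1, the glutamate and cysteine carrier EAAC1, read 3134, 3652, 3487 and 3177 in Ca-free medium, 3202, 2935, 3067 and 3184 after 20 pulses and 3126, 3086, 3095 and 2698 in control (log2 change 0.16 ± 0.068 SE, adjusted p = 0.0706). The Ca-free arrays lay just above all controls. Its other probe sets gave 0.25 ± 0.10 SE (1448299_at) and -0.19 ± 0.10 SE (1460386_a_at). Slc1a4, the neutral carrier ASCT1, gave 0.12 ± 0.11 SE, and Slc1a5, the glutamine exchanger ASCT2, -0.23 ± 0.28 SE on 1416629_at and 0.055 ± 0.30 SE on 1440379_at. Slc36a1, a proton-coupled carrier of lysosomes, gave -0.13 ± 0.30 SE. Slc43a2, the facilitative carrier LAT4, fell on 1434308_at, which read 210.0, 197, 186 and 165 in Ca-free medium, 298, 272, 236 and 283 after 20 pulses and 282, 318, 358 and 261 in control (log2 change -0.60 ± 0.12 SE, adjusted p = 0.00203), while 1439965_at gave 0.073 ± 0.22 SE. Slc7a6os, which is no carrier, read 968, 861, 886 and 1057 in Ca-free medium, 564, 565, 683 and 767 after 20 pulses and 711, 742, 638 and 674 in control on 1429596_at and rose (log2 change 0.43 ± 0.11 SE, adjusted p = 0.00647). The remaining members comprised 7 lower probe sets of 5 genes, with log2 changes of -1.11 to -0.42, and 10 that were not called, at -0.82 to 0.33.

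Members' changes differed between ranges of signal. Of 27 members with a mean signal of 100 to 200, 12 fell and 1 rose, with a median log2 change of -0.49, beside 34.7% lower, 2.13% higher and a median of -0.38 over all probe sets of that range. Among the 24 of 200 to 400, 11 fell and 0 rose, with a median of -0.39, beside 45.2% lower, 3.57% higher and a median of -0.33. Of 12 members of 400 to 800, 5 fell and 1 rose, beside 27.5% lower and 9.52% higher over all probe sets of that range. Of 7 members of 800 to 1600, 3 fell and 2 rose, beside 15.1% and 19%. For the 9 members at 1600 or above, the median was 0.025, 1 fell and 1 rose, beside a median of 0.12, 6.32% lower and 33.9% higher over all. The parts of signal range and family in these counts were not tested apart.

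**Figure D3:**
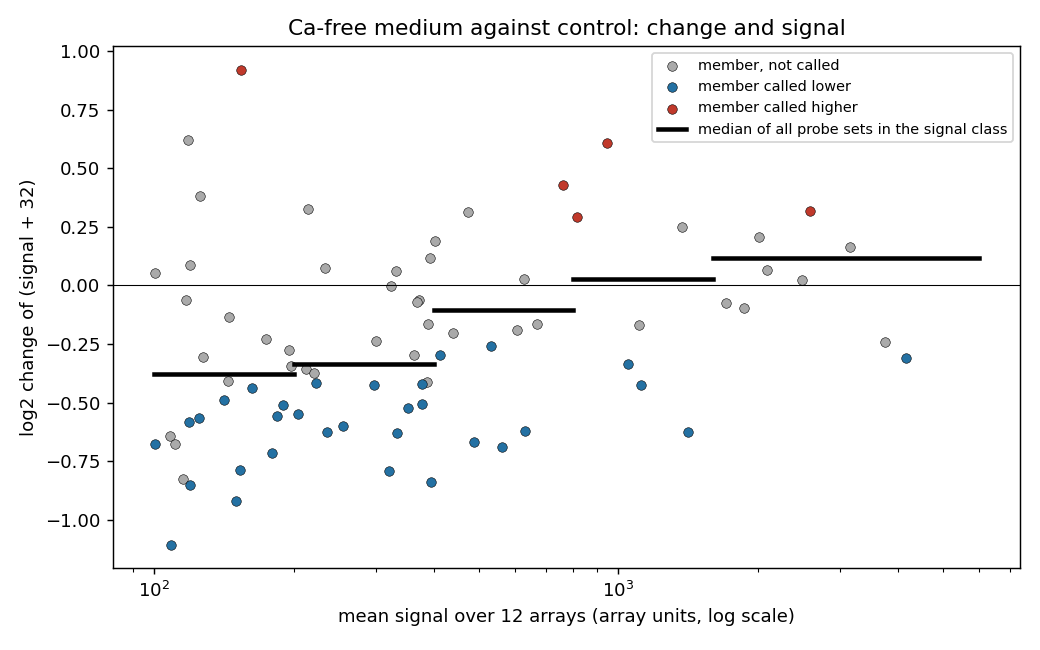
Log2 change in Ca-free medium against control over the mean signal of all 12 arrays (log axis) for the tested transporter probe sets, beside the medians of all tested probe sets. Members of 100 to 200 have a median of -0.49 and those at 1600 or above one of 0.025.

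**Figure D4:**
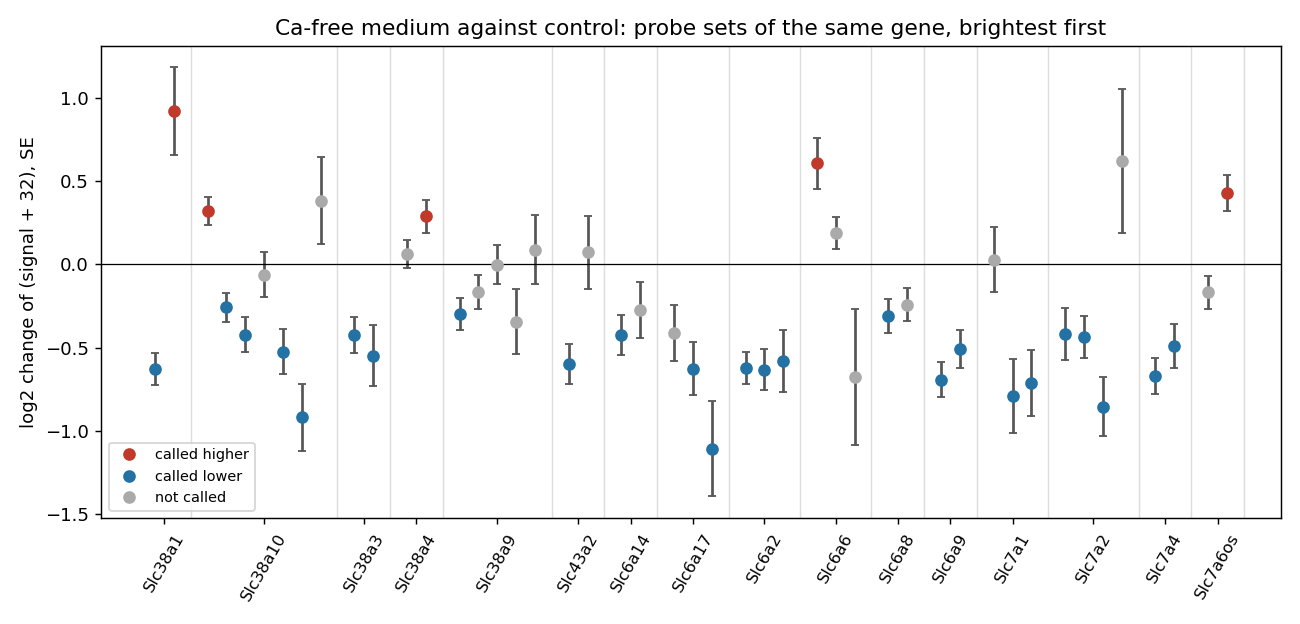
Log2 change in Ca-free medium against control of the tested probe sets (± SE), side by side for each gene that had more than 1 of them and at least 1 call. Slc38a1 and Slc38a10 have probe sets called in both directions.

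Across scalings, 4 members were called lower and 2 higher under all 4, shares of 5.06% and 2.53% beside 4.50% and 2.75% of all tested probe sets. The lower ones were Slc6a9 (1417636_at), Slc7a4 (1426068_at), Slc7a2 (1436555_at) and Slc38a10 (1434616_at), and the higher ones Slc38a1 (1454764_s_at) and Slc6a6 (1437149_at). Scaling to an older set of hybridization controls, outside these 4, ended the call of Slc6a6 (0.25). Of the 22 named calls, quantile normalization ended 7: Slc38a10 on 1456241_a_at (log2 change 0.20), Slc38a9 (-0.11), Slc43a2 (-0.29), Slc6a3 (-0.46), Slc6a9 on 1431812_a_at (-0.29), Slc7a2 on 1422648_at (-0.092) and Slc7a3 (-0.17). Median scaling ended 12, among them Slc38a1 on 1415903_at (-0.22), Slc43a2 (-0.24), Slc6a14 (-0.023), Slc6a19 (-0.47), Slc6a2 on 1447311_at and 1421641_at (-0.23 and -0.26), Slc6a9 on 1431812_a_at (-0.13), Slc7a2 on 1422648_at (-0.063) and Slc7a3 (-0.17). The other 3, Slc38a7 (0.063), Slc38a9 (0.088) and Slc6a8 (0.099), turned to the higher side. Scaling to the hybridization controls ended 3, all increases: Slc38a10 on 1456241_a_at (0.12), Slc38a4 on 1428111_at (0.091) and Slc7a6os on 1429596_at (0.23).

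Against controls 1 and 2 only, 22 members were lower and 4 higher, beside 22.6% and 8.94% of all tested probe sets, and against controls 3 and 4 only 17 and 5, beside 16.1% and 7.36%. The first pair ended the calls of Slc38a4 on 1428111_at (0.21), Slc38a7 (-0.21), Slc38a9 (-0.23), Slc6a8 (-0.25) and Slc7a6os on 1429596_at (0.36). The second pair ended those of Slc38a10 on 1434616_at and 1456241_a_at (-0.69 and 0.24), Slc6a14 (-0.28), Slc6a19 (-0.56), Slc6a8 (-0.37), Slc7a2 on 1422648_at (-0.18) and Slc7a3 (-0.42). With Ca-free arrays 1 and 4 only, 32 members were lower and 7 higher, beside 24.9% and 10.3% of all, and the calls of Slc6a6 on 1437149_at (0.40), Slc38a1 on 1454764_s_at (0.79), Slc38a9 (-0.28) and Slc7a2 on 1422648_at (-0.51) ended. With Ca-free arrays 2 and 3 only, 20 were lower and 3 higher, beside 21.5% and 8.32% of all, and the calls of Slc38a10 on 1456241_a_at (0.22), Slc38a4 on 1428111_at (0.20), Slc38a9 (-0.31), Slc6a14 (-0.27), Slc6a8 (-0.24), Slc7a2 on 1422648_at (-0.33) and Slc7a6os on 1429596_at (0.33) ended.

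**Figure D5:**
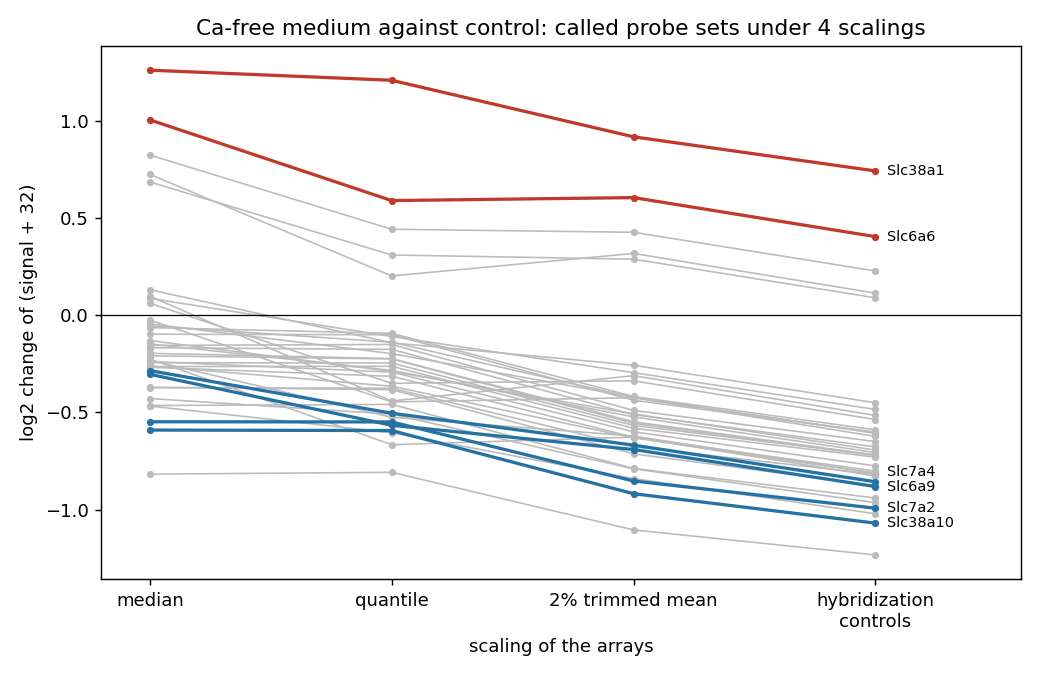
Log2 change in Ca-free medium against control under 4 scalings, 1 line for each transporter probe set called with trimmed mean scaling. The 6 coloured and labelled lines were called alike under all 4, with 4 lower and 2 higher.

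After 20 pulses against control, 0 of the 79 probe sets rose and 0 fell by limma, beside 1.1% and 0.374% of all tested probe sets (1.48% together). At an unadjusted p under 0.05 there were 9 members (11.4%), 5 higher and 4 lower, beside 15.8% of all. All pulse arrays lay above all controls for 3 members and below them for 5, where the shares over all tested probe sets were 5.85% and 5.11%. The members' median log2 change was -0.016, beside -0.027. The smallest adjusted p was that of Slc7a6os on 1440303_at, which read 939.8, 858, 1036 and 869 in Ca-free medium, 1290.3, 1484, 1235 and 1406 after 20 pulses and 1261, 947, 963 and 1017 in control (log2 change 0.37 ± 0.10 SE, adjusted p = 0.0833). It was called without control 1 (log2 change 0.46) and against controls 3 and 4 only (0.44). Scaling to the hybridization controls called 4 of the 79 members higher, beside 7.62% of all. This comparison and the one above share their control arrays. Slc6a9 gave -0.11 ± 0.10 SE, Slc7a4 -0.082 ± 0.11 SE, Slc6a2 on 1447311_at 0.0026 ± 0.10 SE and Slc6a6 -0.016 ± 0.15 SE after 20 pulses.

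Ca-free medium was also set against 20 pulses, the other handling of the embryos, and 25 members were lower and 3 higher (31.6% and 3.80%), beside 23.4% and 9.22% of all tested probe sets (32.6% together). All Ca-free arrays lay below all pulse arrays for 24 members and above them for 4, beside 22.2% and 9.29% of all. After median scaling 4 were lower and 17 higher, beside 3.54% and 31.5% of all. The smallest p-values among lower members were those of Slc6a2 on 1447311_at (log2 change -0.62 ± 0.10 SE, adjusted p = 0.00113), Slc6a9 on 1417636_at (log2 change -0.58 ± 0.10 SE, adjusted p = 0.00197), Slc7a4 on 1426068_at (log2 change -0.59 ± 0.11 SE, adjusted p = 0.00222) and Slc7a6os on 1440303_at (log2 change -0.53 ± 0.10 SE, adjusted p = 0.00247). For Slc6a9, Slc7a4 and Slc7a6os the call ended after median scaling, at -0.23, -0.24 and -0.17. The higher members were Slc7a6os on 1429596_at (log2 change 0.53 ± 0.11 SE, adjusted p = 0.00330), Slc6a6 on 1437149_at (log2 change 0.62 ± 0.15 SE, adjusted p = 0.00869) and Slc7a5 (log2 change 0.53 ± 0.16 SE, adjusted p = 0.0218). Scaling to the hybridization controls ended these 3 calls, at 0.18, 0.27 and 0.18, and with Ca-free arrays 1 and 4 only that of Slc6a6 ended at 0.41. The 2 probe sets of Slc7a6os thus went in opposite directions. Without them, 24 of 77 members were lower and 2 higher (31.2% and 2.6%). Slc7a5 lost its call without pulse array 1, pulse array 3 or Ca-free array 1, at 0.44, 0.41 and 0.48.

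Genes around the transporters were taken from 3 lists, each gene by its brightest tested probe set. By that choice 28.8% of all 13599 genes fell and 12.3% rose in Ca-free medium against control, with a median log2 change of -0.13. Of 14 tested genes for other amino acid and peptide transporters, 5 fell and 2 rose (median -0.081). Slc25a2, a mitochondrial ornithine carrier, averaged 89.1 ± 7.85 on the Ca-free arrays, against 169 ± 11.5 on the controls (± SD, 4 arrays each; log2 change -0.73 ± 0.14 SE, adjusted p = 0.00148). Slc25a22, a mitochondrial glutamate carrier, fell (log2 change -0.52 ± 0.11 SE, adjusted p = 0.00314), as did Ctns, the lysosomal cystine exporter (log2 change -0.38 ± 0.10 SE, adjusted p = 0.00742). Slc25a15, another mitochondrial ornithine carrier, rose (log2 change 0.26 ± 0.076 SE, adjusted p = 0.0157). So did Slc66a1, a lysosomal exporter of cationic amino acids (log2 change 0.34 ± 0.13 SE, adjusted p = 0.0420), whose call ended without any one of controls 1, 2 and 3, or Ca-free replicate 3 or 4, at 0.34, 0.33, 0.23, 0.32 and 0.27. Median scaling ended the call of Slc25a22 (-0.14) and turned that of Ctns (0.0069), and scaling to the hybridization controls ended those of Slc25a15 (0.056) and Slc66a1 (0.14). Quantile normalization ended the calls of Slc25a22 (-0.33), Ctns (-0.20) and Slc66a1 (0.31). Those of Ctns (-0.35), Slc25a15 (0.27) and Slc66a1 (0.32) ended against controls 3 and 4 only, and that of Slc25a15 also against controls 1 and 2 only (0.24) and with Ca-free arrays 2 and 3 only (0.25).

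Of 33 tested genes of amino acid sensing by mTORC1, 6 fell and 4 rose (median -0.013). Mios, a GATOR2 subunit, averaged 725 ± 155 on the Ca-free arrays, against 1155 ± 135 on the controls (± SD, 4 arrays each; log2 change -0.66 ± 0.13 SE, adjusted p = 0.00178). Nprl3 of GATOR1 (log2 change -0.60 ± 0.11 SE, adjusted p = 0.00142) and Mlst8, a subunit of mTORC1 and mTORC2 (log2 change -0.53 ± 0.10 SE, adjusted p = 0.00147), fell too. The GATOR2 subunits Seh1l (log2 change 0.30 ± 0.058 SE, adjusted p = 0.00183) and Sec13 (log2 change 0.32 ± 0.090 SE, adjusted p = 0.0127) and the Ragulator subunit Lamtor1 (log2 change 0.26 ± 0.066 SE, adjusted p = 0.00676) rose. Of 22 genes of the amino acid response through GCN2 and ATF4, 9 fell and 1 rose (median -0.21). Atf4, the transcription factor of that response, averaged 6311 ± 1367 on the Ca-free arrays, against 8805 ± 693 on the controls (± SD, 4 arrays each; log2 change -0.50 ± 0.11 SE, adjusted p = 0.00382), but Ca-free arrays 2 and 3 were higher than arrays 1 and 4. Atf5 (log2 change -0.69 ± 0.14 SE, adjusted p = 0.00256) and the phosphatase subunit Ppp1r15a (log2 change -0.64 ± 0.16 SE, adjusted p = 0.00626) fell, and Cth, cystathionine gamma-lyase, rose (log2 change 0.33 ± 0.056 SE, adjusted p = 8.72e-04). Median scaling ended the calls of Atf4 (-0.090), Atf5 (-0.32), Ppp1r15a (-0.24), Mios (-0.27), Nprl3 (-0.22) and Mlst8 (-0.14). Hybridization control scaling ended those of Cth (0.12), Lamtor1 (0.058), Sec13 (0.11) and Seh1l (0.092), and quantile normalization those of Sec13 (0.17) and Seh1l (0.17). Against controls 3 and 4 only, Lamtor1 (0.23) and Sec13 (0.15) were not called, and neither was Sec13 with Ca-free arrays 2 and 3 only (0.24) nor Ppp1r15a with arrays 1 and 4 only (-0.52).

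After 20 pulses 0 genes of the 3 lists were called by limma, beside 0.75% higher and 0.331% lower of all genes. At an unadjusted p under 0.05 there were 3 of 14 other transporters, 4 of 33 sensing genes and 7 of 22 response genes, the last all lower, beside 15.3% of all genes, 6.82% higher and 8.49% lower. Against 20 pulses, Ca-free medium had 4 lower and 1 higher of the other transporters, 4 lower and 4 higher of the sensing genes and 4 lower and 2 higher of the response genes, beside 21% lower and 11.2% higher of all genes.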

How the data were processed

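RNA came from a PicoPure extraction and was labelled as biotinylated cRNA by an Affymetrix small-sample assay, per the labels' protocols. The authors deposited linear intensity values, made with MAS5 per the submitters' processing notes, at a version not given in the sources used here. They cover 45037 probe sets and 64 array controls. The number of arrays limits the precision.

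Each array was rescaled to a 2% trimmed mean of 500 (a factor of 3.33), 32 was added and log2 taken. Probe sets averaging 100 or more were tested with limma 3.58.1 in R 4.3.3 (lmFit, eBayes with an intensity trend, 12 arrays in 1 model), with Benjamini-Hochberg adjustment over 27808 probe sets and a threshold of 0.05. Gene names came from the platform's annotation, which paired 34945 probe sets with 1 gene, 932 with several and 9160 with none; 34741 symbols matched RefSeq. Promoters are from RefSeq (GRCm38.p6). The procedure was tested on simulated data.

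Values are given for members past the threshold against control, up to the 12 with the smallest p each way, for the 4 smallest each way against 20 pulses, and for the brightest tested probe set of a list of carriers whatever their test, with a gene's further probe sets beside it. Of the other lists, up to 3 called genes each way are named. Members, lists and tests were chosen with earlier results of these data known. Replicate numbers recur in all groups. Residuals of same-numbered arrays correlated little (mean r 0.0156, from -0.058 to 0.101), although 7 of 12 arrays correlated best with their own number. Arrays were not paired in the main fit. Alternatives covered scaling, added value, minimum signal, trend, block, and arrays left out.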

Additional observations from a re-analysis of the deposited data

Results flagged for a closer look

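Of 138 groups of 4 arrays examined, 9 held an array that stood apart from the other 3 by a gap above Dixon's 95% critical value for the group's range. Chance flags about 1 in 20 groups. Slc1a1 (1425415_a_at) read 2698 on control 4, below the 3086 to 3126 of its group's other arrays. Slc36a1 (1428793_at) read 41.2 on pulse array 1, below the 153 to 179 of its group's other arrays. Slc38a10 (1456241_a_at) read 1954 on control 1, below the 2342 to 2415 of its group's other arrays. Slc38a4 (1448889_at) read 2118 on control 3, above the 1995 to 2002 of its group's other arrays. Slc38a7 (1455295_at) read 954 on Ca-free array 3, above the 867 to 879 of its group's other arrays. Slc38a9 (1447784_x_at) read 365 on pulse array 4, below the 427 to 432 of its group's other arrays. Slc3a2 (1425364_a_at) read 2197 on control 4, above the 1808 to 1843 of its group's other arrays. Slc6a6 (1437149_at) read 556 on control 2, below the 876 to 904 of its group's other arrays. Atf5 read 207 on Ca-free array 4, below the 253 to 263 of its group's other arrays.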

How the results depend on the processing

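Quantile normalization gave 12 lower members in Ca-free medium against control and 11 against 20 pulses, beside 9.96% and 4.96% of all tested probe sets. Median scaling gave 19 higher and 6 lower against control (36.8% and 5.52% of all), and 17 higher and 4 lower against 20 pulses (31.5% and 3.54%). Hybridization control scaling gave 2 higher and 49 lower against control (2.78% and 49.1% of all), 0 higher and 62 lower against 20 pulses (0.338% and 70.9%), and 4 higher for 20 pulses against control (7.62%). An older set of hybridization controls, added after seeing the data, gave 1 and 57 (1.04% and 66% of all), 0 and 69 (0.144% and 84.1%), and 1 higher (4.16%). A minimum signal of 300 left 43 members tested, of which 15 were lower against control and 16 against 20 pulses (20.9% and 18% of all), and ended 0 of the 15 named calls against control that it kept in the test. With Ca-free arrays 2 and 3 only, 3 were higher and 20 lower against control (8.32% and 21.5% of all), and with controls 3 and 4 only 17 were lower (16.1%) and, after 20 pulses, 1 higher (2.21%). Leaving out 1 array at a time gave 4 to 7 higher and 27 to 33 lower against control, 2 to 4 and 17 to 23 against 20 pulses, and 0 to 1 and 0 to 0 for 20 pulses against control, the 1 being Slc7a6os without control 1. A replicate block gave 5 higher and 32 lower, 4 and 22, and 0 and 0. The labels do not say whether arrays with the same number were handled together, and 7 of 12 arrays correlated best with their own number. Whether such arrays shared a batch was not tested.

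Some log2 changes turned direction. Against control, median scaling did so for Slc38a7 (0.063), Slc38a9 (0.088), Slc3a2 (0.31), Slc6a8 (0.099) and Ctns (0.0069), and the older hybridization controls for Cth (-0.038), Lamtor1 (-0.10), Sec13 (-0.045), Seh1l (-0.067), Slc25a15 (-0.10), Slc66a1 (-0.014), Slc38a10 on 1456241_a_at (-0.044), Slc38a4 on 1428111_at (-0.063) and 1448889_at (-0.30), and Slc7a6 (-0.34). Against 20 pulses, median scaling turned Slc38a7 (0.060), Slc3a2 (0.30) and Slc6a8 (0.061). There, hybridization control scaling and its older set turned Slc1a1 (-0.25 and -0.40), Slc38a10 on 1456241_a_at (-0.26 and -0.41), Slc38a4 on 1428111_at (-0.33 and -0.47) and 1448889_at (-0.35 and -0.50), and the older set Slc1a4 (-0.33). The causes were not tested. Of 57 named calls over the 3 comparisons, 5 kept their direction and side of the threshold under every alternative run. So did 37 of 66 named values that were not called. Of the 79 tested members, 27 had dim mean signals of 100 to 200, and the part of dimness was not tested.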
